A study of Mus musculus with 9 samples.

Results

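The doublecortin, tubulin and neuron migration genes are a group of 10 named genes. Their products form or regulate the microtubules of migrating neurons, steer the motor dynein, or take part in signals that act on these neurons. The members were given by name: Dcx, Dclk1, Tubb3, Tubb2b, Tuba1a, Pafah1b1, Ndel1, Cdk5r1, Dab1 and Stmn2. Of these 10 genes, 9 were listed among the 14670 genes of the deposited table, and Tubb3 was not analysed here. The study sequenced RNA from mouse embryonic cerebral cortex in order to compare the transcriptome of control embryos with that of embryos lacking Fzd3 or Celsr3, a pair of planar cell polarity genes. Cortex was taken at embryonic day 16.5, and total RNA was prepared with Trizol by the labels and with an RNeasy kit by the methods text. The labels give 3 genotypes with 3 libraries each: Control +/+ (libraries 1, 2 and 3), Fzd3 -/- mutant (libraries 1, 2 and 3) and Celsr3 -/- mutant (libraries 1, 2 and 4). The methods call the controls heterozygous or wild-type littermates on a mixed C57Bl/6 and CD1 background. The results text of the paper describes the Fzd3 mutant allele as lacking exon 3. The labels speak of triplicate RNA samples, and the methods give cortical tissue of 3 per genotype and at least 3 animals for every animal experiment. Neither states whether a library came from 1 animal or from a pool, and every p-value measures only the spread between these samples.

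Values were CPM (read counts scaled to a total near 1000000 per library), with 990141 to 1012200 CPM summed over the listed genes of a library. Sums above 1000000 occur, so the scaling total was not the sum of all counted reads. Within each library every value was a whole multiple of 1 smallest step, within 0.05 of a step. If that step is 1 read, the listed genes held 39857305 to 69600589 reads per library. On that reading the lowest member, Ndel1, rested on 2064 to 3607 reads, a counting error of at most 2.20%, and Tuba1a rested on 456876 to 694333 reads. Counting error leaves out the spread between samples. Over all genes, the Fzd3 mutant libraries resembled each other (Pearson's r of log2 values across genes 0.994 to 0.997) more than they resembled any other library (0.975 to 0.986). Control and Celsr3 mutant libraries reached 0.993 with each other. Genes are not independent replicates, and these r values describe the libraries.

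A neuron born near the ventricle travels to the cortical plate by pushing out a leading process, pulling its nucleus forward and then letting go of its guide fibre. Microtubules of alpha and beta tubulin carry that movement: doublecortin proteins bundle and stabilise them, stathmins take them apart, and LIS1 (the product of Pafah1b1) with Ndel1 steers the motor dynein that pulls the nucleus. The kinase Cdk5, switched on by the p35 protein that Cdk5r1 encodes, phosphorylates several of these proteins, and the adaptor Dab1 passes on the extracellular Reelin signal that positions neurons in layers.

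The mutated genes were read first as a check on the labels. Celsr3 was at 196, 243 and 214 CPM in control libraries 1, 2 and 3, at 253, 213 and 255 CPM in Fzd3 mutant libraries 1, 2 and 3, and at 122, 139 and 118 CPM in Celsr3 mutant libraries 1, 2 and 4. Every Celsr3 mutant library lay below every other library. Celsr3 fell by 41.8% against control (log2 difference -0.78, 95% confidence interval -0.98 to -0.58, limma adjusted p = 0.00180), a call that was lost with no sharing of variances (adjusted p = 0.177) and with a replicate block, the replicate number as a term of the fit (adjusted p = 0.0699). Over 19 alternative settings of the fit the adjusted p ran from 0.00136 to 0.177. Fzd3 was at 58.0, 67.7 and 46.9 CPM in control, 46.5, 39.8 and 59.6 CPM in the Fzd3 mutant and 52.1, 61.1 and 54.8 CPM in the Celsr3 mutant. Those Fzd3 values overlapped between genotypes, with Fzd3 mutant library 3 inside the control range. The log2 difference between Fzd3 mutant and control was -0.24 (-0.57 to 0.08, adjusted p = 0.240) and reached adjusted p = 0.0457 without Fzd3 mutant library 3, against 0.0457 to 0.633 over the libraries left out in turn. Reads over single exons were not analysed here.

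Against control, the Fzd3 mutant cortex had more RNA of 2 of the 9 members, Dclk1 (21.7% higher) and Stmn2 (19.7% higher), while Dcx and both tubulins differed by 3.08% or less. The 2 of 9 members that passed (limma, adjusted p under 0.05) stand beside 29.8% of all 14670 genes that passed in that comparison, 15% of them higher and 14.8% lower. In 8 of 9 members the log2 difference was above 0, as in 49.9% of all genes. In 5 of 9 all Fzd3 mutant libraries lay above all control libraries, against 21.6% of all genes, and in 0 of 9 they lay below, against 22.2%, so that 5 of 9 did not overlap, against 43.8%. The median log2 difference of the 9 members was 0.09, beside -0.00 over all genes, and their median size of difference was 0.10, beside 0.14. At an unadjusted p under 0.05, 4 of 9 members and 41.4% of all genes passed. The count of members that passed fell to 1 without control library 2, without Fzd3 mutant library 1 and without Fzd3 mutant library 2. Without control library 3 it was 3.

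Against control, the Celsr3 mutant cortex showed 0 of 9 members past the threshold in limma, beside 0.307% of all genes (45 of 14670). At an unadjusted p under 0.05 the count was also 0 of 9, beside 5.45% of all genes. The log2 differences of the members ran from -0.07 (Tubb2b) to 0.04 (Cdk5r1) with a median of -0.01, beside -0.00 over all genes, and 3 of 9 lay above 0, as did 48.7% of all genes. All 9 members overlapped between the genotypes, where 10.4% of all genes did not (5.14% above and 5.27% below). The widest interval among the 9, that of Stmn2, ran from -0.15 to 0.20, and the narrowest, that of Pafah1b1, from -0.09 to 0.08.

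The mutants were also compared with each other directly. Dclk1, Stmn2 and Pafah1b1 were higher in the Fzd3 mutant than in the Celsr3 mutant, 3 of 9 members, beside 29.6% of all genes (15.3% higher, 14.3% lower). In 4 of 9 members all Fzd3 mutant libraries lay above all Celsr3 mutant libraries, beside 22.3% of all genes, and in 1 of 9 (Dab1) they lay below, beside 22.6%, so that 5 of 9 did not overlap, beside 44.9%. In 8 of 9 the log2 difference was above 0, beside 49.1% of all genes, and 3 of 9 reached an unadjusted p under 0.05, beside 40.9%. The median difference of the members was 0.08, beside -0.00 over all genes. The count of 3 fell to 1 (Dclk1) without Fzd3 mutant library 1, Fzd3 mutant library 2, Celsr3 mutant library 2 or Celsr3 mutant library 4. Both comparisons with control share the same 3 control libraries, and both comparisons of the Fzd3 mutant share its 3 libraries.

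**Figure D1:**
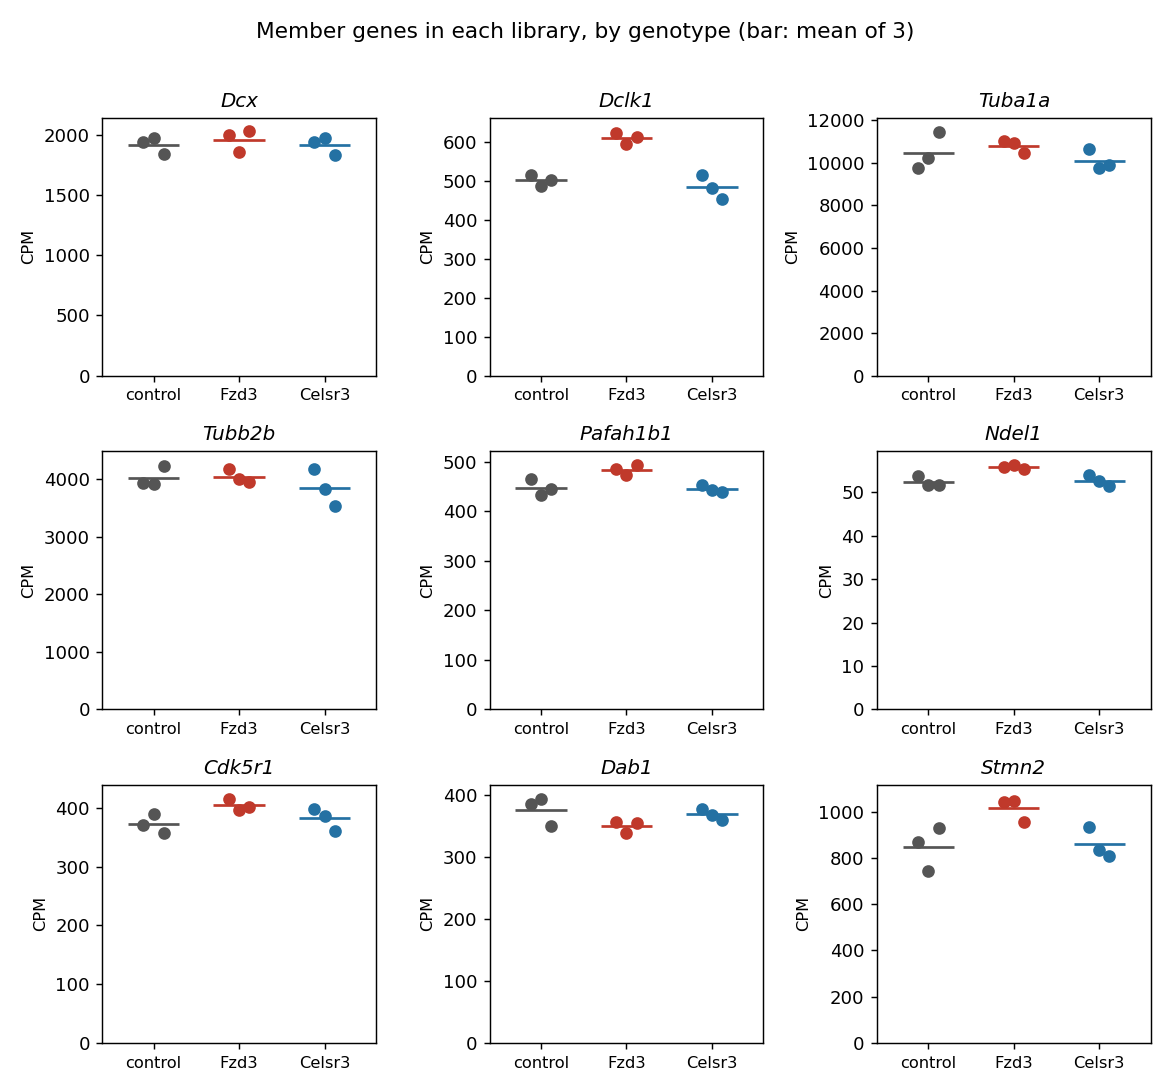
CPM of the 9 members in each of the 9 libraries, with 1 panel per gene, points for libraries and bars for the mean of 3 libraries of a genotype. The Fzd3 mutant points of Dclk1 (593 to 621 CPM) lie above all control points (486 to 514 CPM), while the Dcx points of the 3 genotypes overlap.

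Dcx encodes doublecortin, the microtubule-binding protein of migrating neurons, on chromosome X (chrX:143855842-143933311, minus strand, GRCm38, ENSMUSG00000031285.14). Its level was 1937, 1972 and 1842 CPM in control libraries 1, 2 and 3, 1994, 1852 and 2028 CPM in the Fzd3 mutant, and 1940.5, 1971 and 1829.6 CPM in Celsr3 mutant libraries 1, 2 and 4. The 3 genotypes overlapped, and the highest library held 1.11 times the CPM of the lowest. The log2 difference was 0.03 (95% confidence interval -0.08 to 0.14, adjusted p = 0.689) for the Fzd3 mutant and -0.00 (-0.11 to 0.11, adjusted p = 1.00) for the Celsr3 mutant, each against control. Between the mutants it was 0.03 (-0.08 to 0.14, adjusted p = 0.666).

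Dclk1 encodes doublecortin-like kinase, which joins a doublecortin domain to a kinase (chr3:55242364-55539068, plus strand, ENSMUSG00000027797.15). Of the 9 members, 6 had entries in the RefSeq promoter table of build GRCm38.p6, with 9 windows of 250 bases before an annotated start. Cdk5r1, Stmn2 and Tubb2b were without an entry. The windows were searched for the E-box CANNTG, which reads the same on both strands, for the GC box GGGCGG on both strands, and for CAGATG on both strands, whose matches are also matches of CANNTG. The E-box stood in 6 of 9 windows, beside 66.2% of 32851 promoters, the GC box in 3 of 9, beside 32.7%, and CAGATG in 0 of 9, beside 14.4%. Of these windows 1 of Dcx, both of Dclk1 and that of Pafah1b1 are printed 5′ to 3′ because Dclk1 and Pafah1b1 differed between the mutants and Dcx did not pass. Capitals mark the E-box. Dcx start 1 lies at chrX:143933220-143933469 (minus strand) and has no match. Dcx start 2, at chrX:143933125-143933374, overlaps that window, has no match either and is not printed. Dclk1 start 1 lies at chr3:55242114-55242363 and start 2 at chr3:55461478-55461727 (plus strand), with 2 matches and 1 match. Pafah1b1 lies at chr11:74723859-74724108 (minus strand) and has no match.
Dcx start 1: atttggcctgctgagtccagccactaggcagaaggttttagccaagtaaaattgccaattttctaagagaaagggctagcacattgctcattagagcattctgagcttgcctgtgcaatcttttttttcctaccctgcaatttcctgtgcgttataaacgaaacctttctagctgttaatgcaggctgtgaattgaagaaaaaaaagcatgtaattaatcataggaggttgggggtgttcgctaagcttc
Dclk1 start 1: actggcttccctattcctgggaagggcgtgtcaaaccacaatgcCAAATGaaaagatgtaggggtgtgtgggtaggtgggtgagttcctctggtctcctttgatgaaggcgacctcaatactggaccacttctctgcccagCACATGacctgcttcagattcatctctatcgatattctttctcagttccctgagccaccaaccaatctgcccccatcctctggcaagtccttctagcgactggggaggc
Dclk1 start 2: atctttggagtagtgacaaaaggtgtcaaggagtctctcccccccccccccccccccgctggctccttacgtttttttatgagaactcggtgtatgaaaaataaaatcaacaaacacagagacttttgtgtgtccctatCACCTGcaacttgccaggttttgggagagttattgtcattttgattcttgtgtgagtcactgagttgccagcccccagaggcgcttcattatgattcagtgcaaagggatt
Pafah1b1 start 1: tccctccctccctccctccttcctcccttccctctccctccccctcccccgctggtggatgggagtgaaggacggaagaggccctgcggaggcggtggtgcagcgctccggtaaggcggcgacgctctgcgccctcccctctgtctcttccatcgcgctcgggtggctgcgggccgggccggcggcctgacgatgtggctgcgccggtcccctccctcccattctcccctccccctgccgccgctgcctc
A match describes the letters of a window and shows no binding. G and C made up 41.6% and 44.8% of the Dcx windows, 52.4% and 46.8% of the Dclk1 windows and 73.2% of the Pafah1b1 window, beside a median of 52.4% over all promoters. The CPM of Dclk1 sums transcripts from both starts, so the values do not tell them apart.

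The Dclk1 level was 514, 486 and 501 CPM in control libraries 1, 2 and 3, 621, 593 and 612 CPM in the Fzd3 mutant, and 514, 481 and 452 CPM in Celsr3 mutant libraries 1, 2 and 4. All Fzd3 mutant libraries lay above all others, while control and Celsr3 mutant overlapped. In a bulk tissue, more RNA per cell and more cells of a type cannot be told apart, and the same holds for less RNA and fewer cells. Dclk1 rose by 21.7% in the Fzd3 mutant against control (log2 difference 0.28, 0.18 to 0.39, adjusted p = 0.00153). The exact permutation p over the 6 libraries was 0.1, two-sided, the smallest that 3 against 3 can give. It passed in all 19 alternatives (adjusted p 0.000780 to 0.0152). The direct difference between the mutants was 0.34 (0.23 to 0.44, adjusted p = 0.000653), a level 26.2% higher in the Fzd3 mutant, and it passed in all 19 alternatives (0.000405 to 0.0112). The Celsr3 mutant differed from control by -0.05 (-0.16 to 0.05, adjusted p = 1.00).

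Dclk2, the paralog of Dclk1, was at 197, 195 and 200.4 CPM in control, 215, 223 and 216 CPM in the Fzd3 mutant and 196, 187 and 186 CPM in the Celsr3 mutant. The Fzd3 mutant libraries lay above all others. Dclk2 rose by 10.2% against control (log2 difference 0.14, adjusted p = 0.0158), a call lost with a replicate block (0.0569), without control library 2 (0.0514) and without Fzd3 mutant library 2 (0.0632), over a leave-one-out range of 0.0145 to 0.0632. Dclk1 made up 71.7% ± 0.514 of the summed CPM of Dclk1 and Dclk2 in control, 73.6% ± 0.848 in the Fzd3 mutant and 71.7% ± 0.739 in the Celsr3 mutant (SD, n = 3). The share in each Fzd3 mutant library was above that in every control library (exact permutation p = 0.1, the smallest possible). Paralogs can share reads, and how the deposited counts assigned such reads is not stated.

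Tuba1a encodes the main alpha tubulin of young neurons (chr15:98949837-98953703, minus strand, ENSMUSG00000072235.6). Its level was 9747, 10216 and 11459.6 CPM in control, 11008, 10925 and 10456 CPM in the Fzd3 mutant and 10666, 9738 and 9886 CPM in the Celsr3 mutant. The genotypes overlapped, and control library 3 was the highest of the 9. The log2 difference was 0.05 (-0.10 to 0.20, adjusted p = 0.647) in the Fzd3 mutant against control and turned to -0.00 without control library 1. It was -0.05 (-0.20 to 0.10, adjusted p = 1.00) in the Celsr3 mutant and turned to 0.02 without control library 3.

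Tubb2b encodes a beta tubulin of the developing brain (chr13:34126748-34130466, minus strand, ENSMUSG00000045136.6). Its level was 3933, 3911 and 4237 CPM in control, 4173, 4003 and 3944 CPM in the Fzd3 mutant and 4181, 3823 and 3538 CPM in Celsr3 mutant libraries 1, 2 and 4. The genotypes overlapped, and Celsr3 mutant library 4 was the lowest. The log2 difference was 0.01 (-0.13 to 0.14, adjusted p = 0.960) in the Fzd3 mutant, with its sign turned to -0.01 without control library 1, to -0.02 without control library 2 and to -0.02 without Fzd3 mutant library 1. It was -0.07 (-0.21 to 0.07, adjusted p = 1.00) in the Celsr3 mutant and 0.00 with a replicate block. Between the mutants the difference was 0.07 (adjusted p = 0.419) for Tubb2b and 0.10 (adjusted p = 0.317) for Tuba1a.

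Shares among the alpha tubulin paralogs were close between genotypes. Tuba1a made up 65.6% ± 1.85 of the summed CPM of Tuba1a, Tuba1b and Tuba1c in control, 65.5% ± 1.38 in the Fzd3 mutant and 65.5% ± 1.82 in the Celsr3 mutant (SD, n = 3). Tubb2a was at 1523, 1536 and 1669 CPM in control, 2081, 1925 and 1562 CPM in the Fzd3 mutant and 1625, 1499.7 and 1602 CPM in the Celsr3 mutant. Fzd3 mutant library 3 lay in the control range and the other Fzd3 mutant libraries lay above it. The log2 difference was 0.23 (adjusted p = 0.0748) and passed without Fzd3 mutant library 3 (adjusted p = 0.00207), over a leave-one-out range of 0.00207 to 0.274. Tubb2b made up 71.9% ± 0.185 of the summed CPM of Tubb2a and Tubb2b in control, 68.6% ± 2.63 in the Fzd3 mutant and 70.9% ± 1.79 in the Celsr3 mutant. Every Fzd3 mutant share was below every control share (exact permutation p = 0.1), with library 3 at 71.6% against a lowest control share of 71.7%.

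Pafah1b1 encodes LIS1, the dynein regulator (chr11:74673949-74724670, minus strand, ENSMUSG00000020745.15). Its level was 466, 434 and 444 CPM in control, 485, 472 and 493 CPM in the Fzd3 mutant and 454, 442 and 439.9 CPM in the Celsr3 mutant. All Fzd3 mutant libraries lay above all others. The log2 difference against control was 0.11 (0.03 to 0.20), a level 7.94% higher, with an adjusted p of 0.0508 that did not pass. It passed in 4 of 19 alternatives: without control library 1 (0.0336), with a filter at a mean of 5 CPM (0.0469), with columns rescaled to a sum of 1000000 (0.0268) and with median ratio scaling (0.0471), over a range of 0.0268 to 0.162. Between the mutants Pafah1b1 was 8.55% higher in the Fzd3 mutant (log2 difference 0.12, 0.03 to 0.20, adjusted p = 0.0393). That call was lost in 7 of 19 alternatives: without Fzd3 mutant library 1 (0.10), library 2 (0.0544) or library 3 (0.0989), without Celsr3 mutant library 2 (0.112) or library 4 (0.113), without the trend (0.0940) and with a replicate block (0.213), over a range of 0.0299 to 0.213.

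Ndel1 encodes the partner through which LIS1 reaches dynein (chr11:68821434-68871858, minus strand, ENSMUSG00000018736.14). Its level was 53.8, 51.6 and 51.8 CPM in control, 55.9, 56.3 and 55.3 CPM in the Fzd3 mutant and 54.1, 52.6 and 51.4 CPM in the Celsr3 mutant. The Fzd3 mutant libraries lay above all others by a small margin, since the highest library held 1.10 times the CPM of the lowest. The log2 difference against control was 0.09 (-0.00 to 0.19, adjusted p = 0.135) and passed with no sharing of variances (0.0431, over a range of 0.0431 to 0.284). Between the mutants it was 0.08 (adjusted p = 0.171), and in the Celsr3 mutant against control 0.01 (adjusted p = 1.00).

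Nde1, the close paralog of Ndel1 known from dividing neural progenitors, was lower in the Fzd3 mutant. It was at 49.1, 47.1 and 41.6 CPM in control, 22.9, 26.9 and 27.9 CPM in the Fzd3 mutant and 42.6, 42.7 and 46.8 CPM in the Celsr3 mutant. Every Fzd3 mutant library lay below every other library. Nde1 fell by 43.6% in the Fzd3 mutant against control (log2 difference -0.81, -1.0 to -0.63, adjusted p = 8.23e-05) and passed in all 19 alternatives. Between the mutants the difference was -0.76 (adjusted p = 0.000161), also past the threshold in all 19. Nde1 made up 46.6% ± 1.83 of the summed CPM of Nde1 and Ndel1 in control, 31.6% ± 2.32 in the Fzd3 mutant and 45.5% ± 1.91 in the Celsr3 mutant (SD, n = 3, exact permutation p = 0.1 for the Fzd3 mutant against either genotype).

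Cdk5r1 encodes p35, the activator of Cdk5 (chr11:80477023-80481184, plus strand, ENSMUSG00000048895.13). Its level was 371, 389.6 and 357 CPM in control, 415, 396 and 401 CPM in the Fzd3 mutant and 398, 386 and 361 CPM in the Celsr3 mutant. The Fzd3 mutant libraries lay above all control libraries, and Celsr3 mutant library 1 lay among the Fzd3 mutant values. The log2 difference against control was 0.12 (0.01 to 0.22), a level 8.51% higher, with an adjusted p of 0.0802. It passed with columns rescaled to a sum of 1000000 (0.0372, over a range of 0.0372 to 0.227). The difference was 0.04 (adjusted p = 1.00) in the Celsr3 mutant and 0.08 (adjusted p = 0.215) between the mutants.

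Cdk5r2, which encodes the second Cdk5 activator p39, was far scarcer, at 8.15, 8.21 and 10.3 CPM in control, 16.3, 13.99 and 11.5 CPM in the Fzd3 mutant and 10.8, 7.96 and 7.99 CPM in the Celsr3 mutant. All Fzd3 mutant libraries lay above all others. Cdk5r2 rose in the Fzd3 mutant against control (log2 difference 0.62, 0.29 to 0.95, adjusted p = 0.0106). The call was lost without Fzd3 mutant library 1 (0.0504) and with no sharing of variances (0.0581), over a leave-one-out range of 0.00496 to 0.0504. Of the summed CPM of Cdk5r1 and Cdk5r2, Cdk5r2 made up 2.34% ± 0.401 in control, 3.32% ± 0.497 in the Fzd3 mutant and 2.27% ± 0.322 in the Celsr3 mutant (SD, n = 3). The shares of Fzd3 mutant and control overlapped (exact permutation p = 0.2), with library 3 at 2.79% and 2.80%. Every Fzd3 mutant share lay above every Celsr3 mutant share (exact permutation p = 0.1).

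Dab1 encodes the adaptor of the Reelin receptors (chr4:103619359-104744844, plus strand, ENSMUSG00000028519.16). Its level was 386, 394 and 349 CPM in control, 357, 339 and 354 CPM in the Fzd3 mutant and 378, 368 and 359.6 CPM in the Celsr3 mutant. Control library 3 lay within the Fzd3 mutant range, so these genotypes overlapped, while every Fzd3 mutant library lay below every Celsr3 mutant library. Dab1 was the only member of the 9 with a negative log2 difference in the Fzd3 mutant against control, at -0.10 (-0.21 to 0.00, adjusted p = 0.132), and its sign held in all 19 alternatives, both rescalings included. Without control library 3 it passed (adjusted p = 0.0205, over a range of 0.0205 to 0.368). Between the mutants it was -0.07 (adjusted p = 0.274).

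Stmn2 encodes stathmin-2 (SCG10), a microtubule regulator of growing axons (chr3:8509360-8561606, plus strand, ENSMUSG00000027500.10). Its level was 868, 745 and 932 CPM in control, 1041, 1048 and 958 CPM in the Fzd3 mutant and 933, 835 and 809.7 CPM in the Celsr3 mutant. All Fzd3 mutant libraries lay above all others, with library 3 the nearest to them. Stmn2 was also the most variable member, with a within-genotype SD of 0.12 (log2) and a highest library at 1.41 times the lowest. Stmn2 rose by 19.7% in the Fzd3 mutant against control (log2 difference 0.26, 0.09 to 0.44, adjusted p = 0.0276). The call was lost in 6 of 19 alternatives: without control library 1 (0.0520) or library 2 (0.0922), without Fzd3 mutant library 1 (0.0911) or library 2 (0.0911), without the trend (0.0662) and with no sharing of variances (0.106), over a range of 0.00969 to 0.106. Between the mutants it was 18.2% higher in the Fzd3 mutant (log2 difference 0.24, 0.07 to 0.42, adjusted p = 0.0397). That call was lost in 8 of 19: without control library 1 (0.0538), without Fzd3 mutant library 1 (0.119) or library 2 (0.120), without Celsr3 mutant library 2 (0.113) or library 4 (0.131), without the trend (0.0859), with no sharing of variances (0.131) and with a replicate block (0.204), over a range of 0.0123 to 0.204. The Celsr3 mutant differed from control by 0.02 (-0.15 to 0.20, adjusted p = 1.00).

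**Figure D2:**
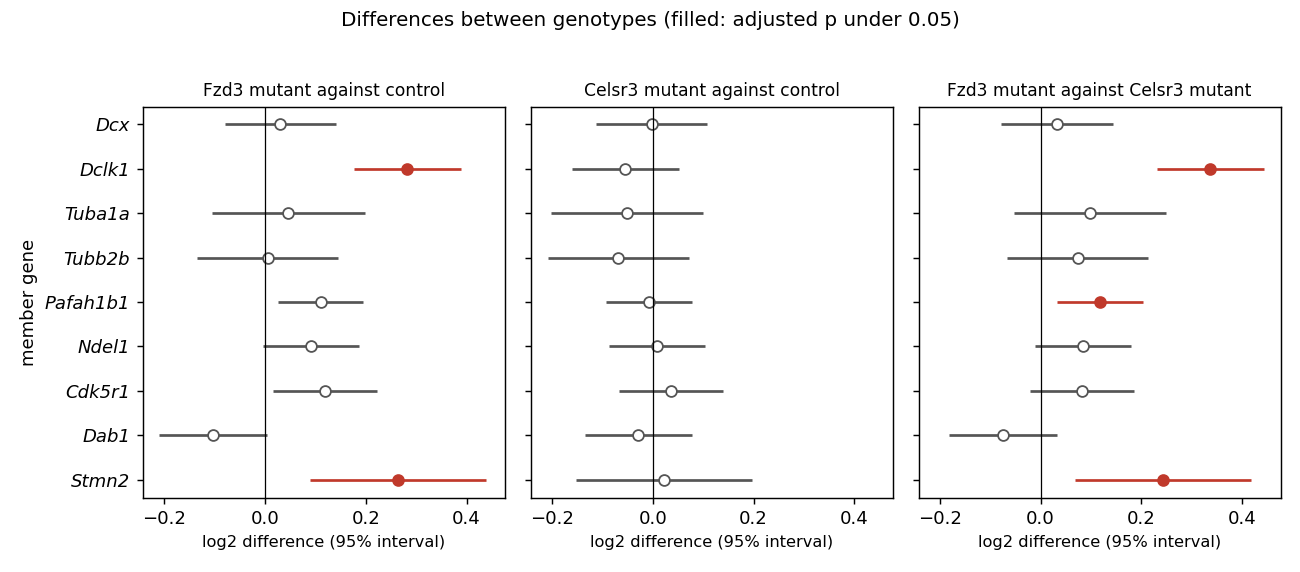
Log2 differences of the 9 members, with 95% confidence intervals as bars, for the Fzd3 mutant against control, the Celsr3 mutant against control and the Fzd3 mutant against the Celsr3 mutant. Dclk1 lies furthest from 0 (0.28 and 0.34 in the comparisons of the Fzd3 mutant), while the Celsr3 mutant against control runs from -0.07 to 0.04.

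Levels of different genes were set side by side per kb of annotated exon (GENCODE lengths). In control, Tuba1a led with 5809 ± 491 CPM per kb, followed by Tubb2b with 1755 ± 79.4 CPM per kb (SD, n = 3). Among the 13786 genes with a length, these ranked 4 and 12 by their mean over the 9 libraries. Dcx followed with 152 ± 5.33 and Stmn2 with 151 ± 16.9 CPM per kb, a pair that overlapped. Cdk5r1 was at 89.5 ± 3.97, Dab1 at 47.6 ± 2.99 and Pafah1b1 at 46.6 ± 1.68 CPM per kb, of which Dab1 and Pafah1b1 overlapped. Dclk1 at 32.7 ± 0.924 and Ndel1 at 16.1 ± 0.372 CPM per kb closed the order. The Celsr3 mutant showed the same pairs overlapping, Stmn2 (153 ± 11.6) with Dcx (151 ± 5.89) and Dab1 (46.6 ± 1.17) with Pafah1b1 (46.3 ± 0.786). In the Fzd3 mutant all 8 neighbouring pairs were apart. Stmn2 (181 ± 8.98) lay above Dcx (155 ± 7.38) and Pafah1b1 (50.3 ± 1.10) above Dab1 (44.2 ± 1.26), each with an exact permutation p of 0.1. That test took the values of both genes as separate samples. They came from the same 3 libraries, so the p shows only that the values did not overlap. Per kb of the longest transcript the order of Pafah1b1 and Dab1 in the Fzd3 mutant was reversed, with Dab1 at rank 7 and Pafah1b1 at rank 8, so that order rests on the length used. On that length Dclk1 ranked 7 in control and 6 in the Fzd3 mutant (its exons sum to 15.3 kb and its longest transcript has 7.96 kb), and Stmn2 ranked 3 and Dcx 4 in all genotypes.

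**Figure D3:**
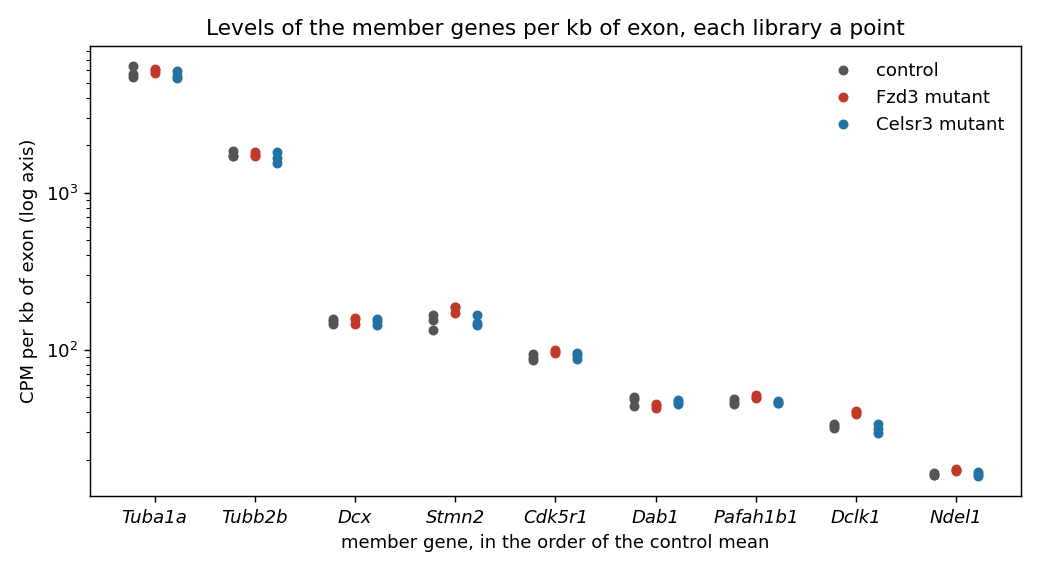
CPM per kb of exon of the 9 members on a log axis, with 1 point per library coloured by genotype. By their means per genotype, Tuba1a (5599.7 to 5988 CPM per kb) and Tubb2b (1677 to 1761) stand above the other 7 members, and Ndel1 (16.1 to 17.2) is the lowest.

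The 9 members together held 17728 to 20173 CPM, or 1.79% to 2.02% of a library's summed CPM. The sum was 19016 ± 1015 CPM in control, 19713 ± 425 CPM in the Fzd3 mutant and 18448 ± 946 CPM in the Celsr3 mutant (SD, n = 3). Those sums overlapped between genotypes and were mostly Tuba1a. Celsr3 mutant library 4 was the lowest of the 9 libraries for 4 of 9 members (Dcx, Dclk1, Tubb2b and Ndel1), and no other library was lowest for more than 2.

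Beyond the members, 6 lists of related genes held 96 names, of which 93 were in the table. In the Fzd3 mutant against control 24 of the 93 rose and 9 fell, beside 15% and 14.8% of all genes. In the Celsr3 mutant against control 0 of 93 passed in limma, beside 0.307% of all genes, and 6 of 93 reached an unadjusted p under 0.05, beside 5.45%. Between the mutants 25 were higher and 11 lower in the Fzd3 mutant, beside 15.3% and 14.3% of all genes. The count of 24 was 14 without control library 2, 12 without Fzd3 mutant library 1, 13 without Fzd3 mutant library 2 and 14 with no sharing of variances. The count of 25 was 14 without Fzd3 mutant library 1, 16 without Celsr3 mutant library 4, 14 with no sharing of variances and 8 with a replicate block. The count of 11 was 7 without Fzd3 mutant library 1, Celsr3 mutant library 2 or Celsr3 mutant library 4, and 6 without Fzd3 mutant library 2 or Celsr3 mutant library 1. It was also 7 without the trend, 6 with no sharing of variances and 5 with a replicate block.

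Of the microtubule-associated proteins and stathmins, 10 of 23 rose and 1 fell in the Fzd3 mutant against control, beside 15% and 14.8% of all genes, with a median log2 difference of 0.13, beside -0.00 over all genes. The positive median held under both rescalings. Stmn4, a neuronal stathmin, was at 235, 191 and 253 CPM in control, 398, 402 and 353 CPM in the Fzd3 mutant and 304, 295 and 264 CPM in the Celsr3 mutant. The 3 genotypes did not overlap. Stmn4 rose in the Fzd3 mutant (log2 difference 0.77, adjusted p = 0.000208), and was 0.35 above control in the Celsr3 mutant without passing (adjusted p = 0.399). Map6, which stabilises microtubules against cold, rose by 0.41 (adjusted p = 0.000434). Map6 had 2 entries in the table, with means of 123 and 2.03 CPM, and the more abundant was used. Mapre2, an end-binding protein, rose by 0.36 (adjusted p = 0.000469). Stmn4, Map6 and Mapre2 passed in all 19 alternatives. Stmn1, the most abundant of the list at 1237 CPM per kb, rose by 0.20 (adjusted p = 0.0418), a call lost without control library 1 (0.0898) or library 2 (0.134), without Fzd3 mutant library 1 (0.0992) or library 2 (0.149) without Celsr3 mutant library 2 (0.0522), without the trend (0.0820), with no sharing of variances (0.110) and with a replicate block (0.0745), over a leave-one-out range of 0.0167 to 0.149. The count of 10 fell to 6 without control library 1, control library 2 or Fzd3 mutant library 1, to 5 without Fzd3 mutant library 2 and to 6 with no sharing of variances. The count of 1 lower was 0 without control library 2, Fzd3 mutant library 1 or Fzd3 mutant library 2, without the trend and with a replicate block.

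Of the other tubulins, 12 of 15 were listed, 0 rose and 2 fell in limma, beside 15% and 14.8% of all genes, with a median of 0.06 that held its sign under both rescalings and was -0.00 without Fzd3 mutant library 1. Tubb4b fell by 0.25 on the log2 scale (adjusted p = 0.00196) and passed in all 19 alternatives. Tubg1, the gamma tubulin of microtubule-organising centres, fell by 0.25 (adjusted p = 0.0179), a call lost without control library 2 (0.0629) or library 3 (0.0569) and without Fzd3 mutant library 1 (0.0501) or library 2 (0.0748) and with no sharing of variances (0.0609), over a leave-one-out range of 0.00942 to 0.0748. Tuba1b, the most abundant of the list at 1777 CPM per kb, differed by 0.04 (adjusted p = 0.769). The count of 2 lower was 1 without control library 2, control library 3, Fzd3 mutant library 1 or Fzd3 mutant library 2 and with no sharing of variances, and 1 gene was higher without control library 3 or Fzd3 mutant library 3.

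The list of LIS1, dynein and dynactin genes also held kinesin genes and Ywhae. In it 5 of 26 genes rose, kinesin genes among them, and 1, Nde1, fell, beside 15% and 14.8% of all genes. The list's median was -0.00, and it turned to 0.01 with columns rescaled to a sum of 1000000 and to 0.00 with median ratio scaling. With a library left out it ran from -0.00 to 0.01. Dync1li1, a light intermediate chain of dynein, rose by 0.27 (adjusted p = 0.00126), and Kif5c, a neuronal kinesin, rose by 0.18 (adjusted p = 0.00783). Both passed in all 19 alternatives. Dync1li1 was 0.16 above control in the Celsr3 mutant without passing (adjusted p = 0.468), with its libraries above all control libraries. Ywhae, the most abundant at 472 CPM per kb, differed by 0.03 (adjusted p = 0.586). The count of 5 higher was 2 without control library 2 or Fzd3 mutant library 3, and 3 without Fzd3 mutant library 1 or library 2, without the trend and with no sharing of variances. The count of 1 lower was 2 without control library 3 or Fzd3 mutant library 2.

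Of the Cdk5 complex and its targets, 3 of 6 rose and 0 fell in limma, beside 15% and 14.8% of all genes, with a median of 0.11 that held its sign under both rescalings. Beside Cdk5r2, Cables1 rose by 0.42 (adjusted p = 0.0187), a call lost without control library 1 (0.0702) and without Fzd3 mutant library 1 (0.0787) or library 2 (0.0569) and with no sharing of variances (0.0512), over a leave-one-out range of 0.0125 to 0.0787. Cables2 rose by 0.21 (adjusted p = 0.0410), a call lost without control library 1 (0.109) or library 2 (0.144), without Fzd3 mutant library 1 (0.113), library 2 (0.0905) or library 3 (0.0682) without Celsr3 mutant library 4 (0.0522), without the trend (0.0735), with no sharing of variances (0.102) and with a replicate block (0.0545), over a leave-one-out range of 0.0150 to 0.144. The kinase Pak1, the most abundant at 54.1 CPM per kb, differed by 0.01 (adjusted p = 0.864) and turned to -0.05 without control library 2. The count of 3 was 0 without Fzd3 mutant library 1 and with no sharing of variances, 1 without control library 1 or Fzd3 mutant library 2, and 2 without control library 2, Fzd3 mutant library 3 or Celsr3 mutant library 4. Without Fzd3 mutant library 3, 1 gene was lower.

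Of the Reelin pathway, 2 of 14 rose and 3 fell, beside 15% and 14.8% of all genes, with a median of 0.02 that held its sign under both rescalings and turned to -0.02 without control library 3 and to -0.01 without Fzd3 mutant library 3. Vldlr, a Reelin receptor, rose by 0.26 (adjusted p = 0.00384), while the adaptor Crkl fell by 0.24 (adjusted p = 0.00406) and the kinase Src fell by 0.20 (adjusted p = 0.0114). These 3 passed in all 19 alternatives. Cdh2 (N-cadherin), the most abundant at 81.7 CPM per kb, fell by 0.16 (adjusted p = 0.0218), a call lost without control library 1 (0.0633) or library 2 (0.0813) and without Fzd3 mutant library 1 (0.0517) or library 2 (0.0691), without the trend (0.0593) and with no sharing of variances (0.0536), over a leave-one-out range of 0.00478 to 0.0813. The count of 2 higher was 1 without Fzd3 mutant library 1. The count of 3 lower was 2 without control library 2, Fzd3 mutant library 1 or Fzd3 mutant library 2. Without Fzd3 mutant library 3 the counts were 3 higher and 4 lower.

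Of the other neuron migration genes, 4 of 12 rose and 2 fell, beside 15% and 14.8% of all genes, with a median of 0.06 that held its sign under both rescalings. The 2 that fell are not named here. Srgap2, which shapes the leading process, rose by 0.25 (adjusted p = 0.000978) and passed in all 19 alternatives. Cdc42, the most abundant at 136 CPM per kb, rose by 0.16 (adjusted p = 0.0178), a call lost without control library 2 (0.0632) and without Fzd3 mutant library 1 (0.0546) or library 2 (0.0648), without the trend (0.0536) and with a replicate block (0.0506), over a leave-one-out range of 0.0135 to 0.0648. The count of 4 higher was 2 without control library 2, Fzd3 mutant library 1 or Fzd3 mutant library 2.

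**Figure D4:**
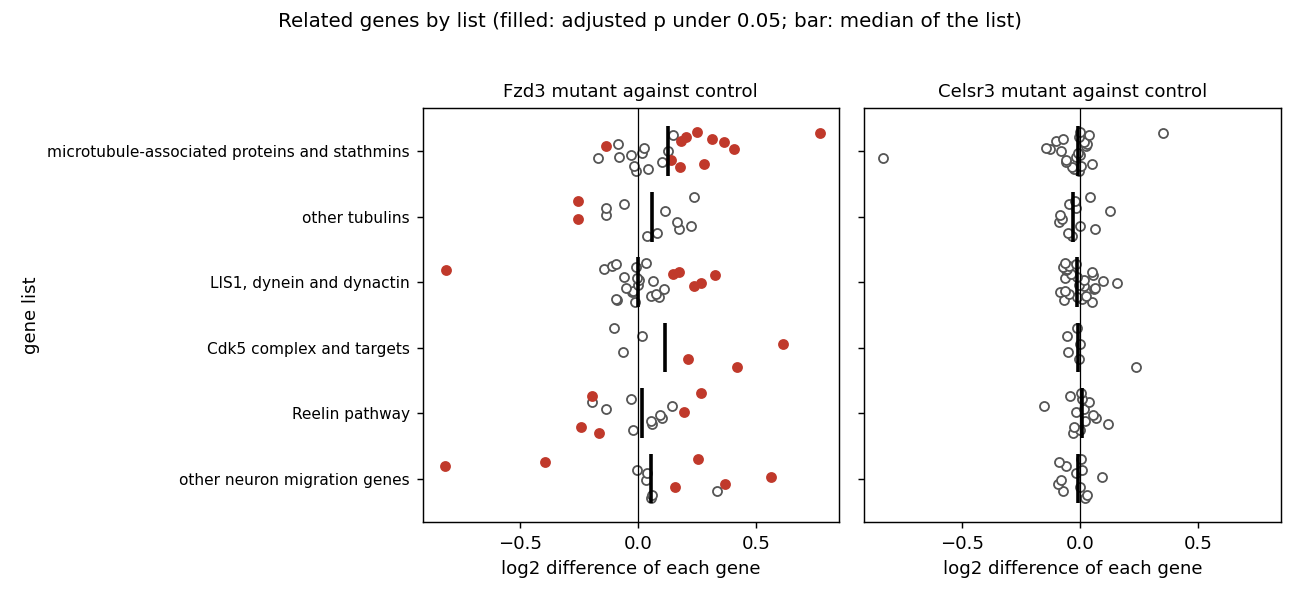
Log2 differences of the genes of the 6 lists in each mutant against control, with 1 point per gene and a bar at the median. In the Fzd3 mutant against control the microtubule-associated proteins and stathmins have a median of 0.13, and Nde1 lies at -0.81.

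Markers of cell types were read beside the members, because the abundance of cell types can move with genotype. The postmitotic neuron markers held 3840, 3889 and 3777 CPM in control libraries 1, 2 and 3, 4120, 4090 and 4045 CPM in the Fzd3 mutant and 3998, 3931 and 3838 CPM in Celsr3 mutant libraries 1, 2 and 4. All Fzd3 mutant sums lay above all others, while 6 of 14 neuron markers rose and 5 fell, beside 15% and 14.8% of all genes, with a median log2 difference of 0.01 against control, beside -0.00 over all genes. Neurod6 was the most abundant of them (872 CPM on average over the 9 libraries).

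Progenitor markers were lower in the Fzd3 mutant. Radial glia markers held 1408, 1460 and 1427 CPM in control, 1080, 1141 and 1031 CPM in the Fzd3 mutant and 1282, 1317 and 1399 CPM in the Celsr3 mutant. Intermediate progenitor markers held 391, 415 and 346 CPM in control, 219.8, 239.6 and 275 CPM in the Fzd3 mutant and 381, 434 and 440.1 CPM in the Celsr3 mutant. Cycling cell markers held 924, 991 and 839.6 CPM in control, 514, 549 and 602 CPM in the Fzd3 mutant and 822, 895 and 952 CPM in the Celsr3 mutant. Every radial glia sum of the Celsr3 mutant lay below every control sum. In all 3 sets every Fzd3 mutant sum lay below every other sum. Against control 6 of 8 radial glia markers fell (median -0.56), 5 of 5 intermediate progenitor markers fell (median -0.76) and 9 of 9 cycling cell markers fell (median -0.75), beside 14.8% of all genes lower, and 0 rose in limma, which was also the count at an unadjusted p under 0.05. These signs held under both rescalings. The most abundant genes were Fabp7 (432 CPM), Eomes (160.1 CPM) and Top2a (251 CPM). Their part in the results of the members was not tested.

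Markers of other cell types were read in the same way, and their counts stand beside 15% of all genes higher and 14.8% lower. Oligodendrocyte precursor markers held 27.6 to 39.1 CPM in control, 38.05 to 71.2 CPM in the Fzd3 mutant and 26.9 to 36.9 CPM in the Celsr3 mutant, and 3 of 5 rose in the Fzd3 mutant (most abundant Pdgfra, 19.7 CPM). That count was 1 without control library 1, control library 2, Fzd3 mutant library 1 or Fzd3 mutant library 2, without the trend and with no sharing of variances, and 4 without Fzd3 mutant library 3. Microglia markers held 36.8 to 43.5, 45.4 to 65.0 and 40.9 to 52.4 CPM in control, Fzd3 mutant and Celsr3 mutant, and 3 of 8 rose (most abundant Csf1r, 16.8 CPM). That count was 1 without Fzd3 mutant library 1 and with a filter at a mean of 5 CPM, 5 without Fzd3 mutant library 3, and 2 without control library 1, control library 2 or Fzd3 mutant library 2. Endothelial markers held 102 to 107, 135 to 155 and 97.9 to 146 CPM, and 3 of 7 rose (most abundant Kdr, 38.3 CPM), with 5 without Celsr3 mutant library 4, with a replicate block and with only the 2 genotypes. Pericyte and meningeal markers, of which 7 of 8 were listed (Lum was not), held 60.6 to 67.1 CPM in control, 68.6 to 83.1 CPM in the Fzd3 mutant and 72.1, 66.4 and 239.5 CPM in Celsr3 mutant libraries 1, 2 and 4 (most abundant Rgs5, 34.4 CPM). Celsr3 mutant library 4 stood apart in that set. Of the 7, 0 passed in limma in the Fzd3 mutant, where 3 reached an unadjusted p under 0.05, beside 41.4% of all genes, and 2 passed without Celsr3 mutant library 4, with a replicate block and with only the 2 genotypes, and 1 without Fzd3 mutant library 3.

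Interneuron markers held 282 to 320.5 CPM in control, 305 to 398 CPM in the Fzd3 mutant and 233 to 296 CPM in the Celsr3 mutant, and 1 of 10 rose in the Fzd3 mutant against control, beside 15% of all genes higher and 14.8% lower (most abundant Dlx1, 83.4 CPM), with 3 without Fzd3 mutant library 3. Cajal-Retzius markers held 498 to 539.9, 489 to 701 and 402 to 506 CPM in the same order, mostly Reln (484 CPM), which is also a gene of the Reelin list. Of these, 0 of 6 passed in limma, 2 reached an unadjusted p under 0.05, beside 41.4% of all genes, and 1 passed without Fzd3 mutant library 1 or library 2 and with a replicate block. Red blood cell markers held 1766 to 2040.0, 1569.9 to 2444 and 1585 to 2538 CPM (most abundant Hba-a1, 643 CPM), and 1 of 7 fell, a count of 0 without control library 1, control library 2 or any single Fzd3 mutant library, and with no trend, no sharing of variances, the stricter filter or the pseudocount 2. Without Fzd3 mutant library 3, 1 rose. Of the choroid plexus markers 0 of 4 (Ttr, Folr1, Kl and Otx2) were listed. Of the markers of neighbouring striatum and thalamus 5 of 10 were listed, with Drd1, Drd2, Penk, Isl1 and Gbx2 not among them. These 5 held 12.3 to 18.8 CPM in every library (most abundant Tcf7l2, 3.97 CPM), and 3 fell. That count was 2 without control library 1 or Celsr3 mutant library 2, 1 without control library 2, control library 3, Fzd3 mutant library 1 or Fzd3 mutant library 3, and 0 without Fzd3 mutant library 2, while 1 rose without control library 3. The count of 3 was also 0 with the stricter filter and with no sharing of variances, and 1 without the trend and with a replicate block. The part of these cell types in the results of the members was not tested.

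In the Celsr3 mutant against control 0 markers of any set passed in limma, beside 0.307% of all genes. At an unadjusted p under 0.05, beside 5.45% of all genes, stood 4 of 10 interneuron markers (3 lower and 1 higher, with a median log2 difference of -0.21), 4 of 14 neuron markers (2 higher and 2 lower) and 0 to 2 of each other set. Of the radial glia markers 0 of 8 had a log2 difference above 0 (median -0.08), beside 48.7% of all genes. Above 0 were also 2 of 9 cycling cell markers (median -0.05) and 5 of 5 intermediate progenitor markers (median 0.09). The pericyte and meningeal markers had a median of 1.22, which was 0.24 without Celsr3 mutant library 4 and 0.03 with a replicate block. Between the mutants, beside 15.3% of all genes higher and 14.3% lower, 9 of 9 cycling cell markers (median -0.71), 5 of 5 intermediate progenitor markers (median -0.82) and 6 of 8 radial glia markers (median -0.46) were lower in the Fzd3 mutant, and 1 radial glia marker was higher. That 1 was 0 without Fzd3 mutant library 2, Celsr3 mutant library 2 or Celsr3 mutant library 4, without the trend and with a replicate block. Of the neuron markers 7 of 14 were higher and 6 lower, the latter 3 with a replicate block. Of the interneuron markers 5 of 10 were higher (median 0.26), with 1 without Fzd3 mutant library 1, Celsr3 mutant library 2 or Celsr3 mutant library 4, 2 without Fzd3 mutant library 2, and 1 with no sharing of variances or with a replicate block. Of the oligodendrocyte precursor markers 3 of 5 were higher (median 0.56), with 5 without Fzd3 mutant library 3 and 1 with no sharing of variances. The other 6 sets held 0 to 2 higher and 0 to 1 lower, and up to 5 higher with a library left out (endothelial, without Celsr3 mutant library 4).

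**Figure D5:**
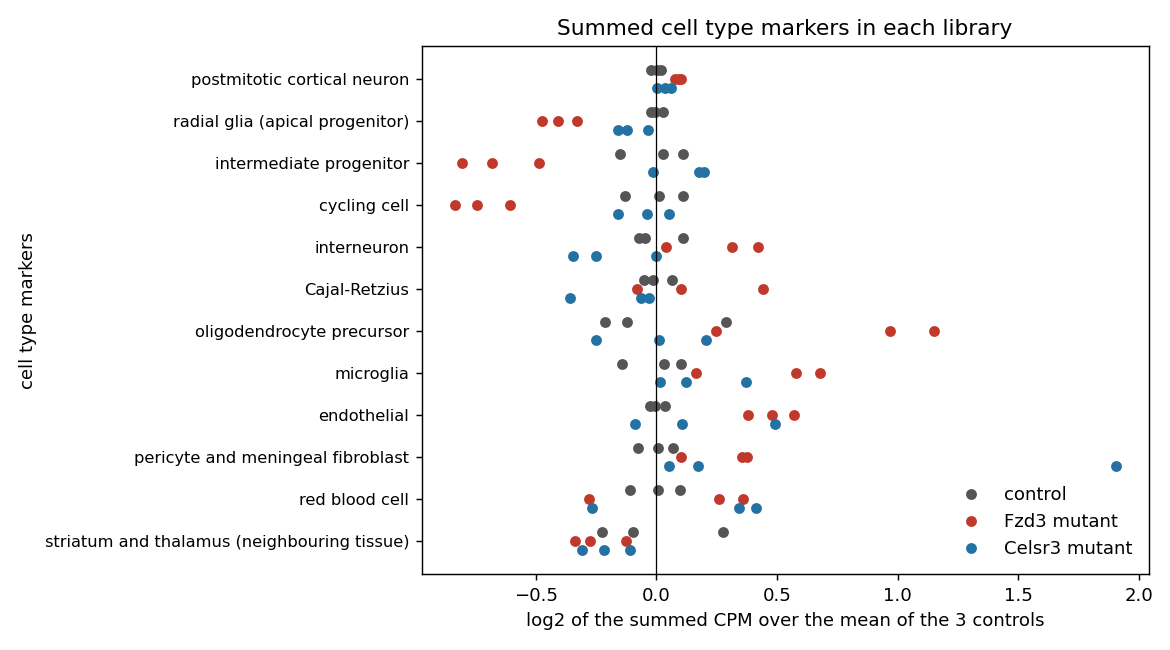
Summed CPM of each marker set in each of the 9 libraries, relative to the control mean. The Fzd3 mutant libraries lie below control for cycling cell, intermediate progenitor and radial glia markers, with cycling cell markers at 514 to 602 CPM against 839.6 to 991 CPM.

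Genes whose profile over the 9 libraries was closest to each member's were searched among the 11585 genes that averaged 5 CPM or more, by the root mean square difference of log2 values after each profile was centred on its mean. Closest to Dcx were Map2 (0.02, its own spread being 0.05), the entry listed as 6-Mar (0.02) and Cask (0.02). Closest to Dclk1 was B4galt6 (0.03, against a spread of 0.16), and closest to Stmn2 was Sema4f (0.04, against 0.16). For the other members the closest genes were Nudcd3 for Tubb2b, Mrps18a for Tuba1a, Pdik1l for Pafah1b1, Prkar1a for Ndel1, Ski for Cdk5r1 and Asb7 for Dab1, at differences of 0.02 each. A search over this many genes returns some near profile for any member, so closeness here shows no shared regulation.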

How the data were processed

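RNA sequencing of mouse cortex at embryonic day 16.5 gave 9 libraries, 3 per genotype. The deposited values are CPM (read counts scaled to a total near 1000000 per library), which the authors computed per gene. The submitters' processing notes name FastQC, TopHat, Bowtie, TopHat2, Cufflinks 2.1.1 and edgeR 2.12, and list GRCm38 and GRCh37 as genome builds. Here log2(CPM + 0.5) was fitted over all 14670 genes with limma 3.58.1 in R 4.3.3, with 1 mean per genotype, variances shared along the trend with level, two-sided tests and Benjamini-Hochberg adjustment. The threshold was an adjusted p of 0.05. Genes averaging under 0.5 CPM would have been dropped, and there were 0. Tables used Python 3.11.15. Intervals are 95% confidence intervals. Levels per kb used GENCODE exon lengths, and a symbol with 2 entries was read from the more abundant. Exact permutation tests compared 3 with 3 libraries or, for neighbouring levels, the values of both genes in the same 3 libraries.

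Named genes were the members, their close paralogs, the mutated genes, and from each of 6 lists the 3 smallest adjusted p-values among genes that passed in the Fzd3 mutant against control, any gene that passed in the Celsr3 mutant against control and the gene with the most CPM per kb, apart from 2 genes of the list of other neuron migration genes, both lower in the Fzd3 mutant, which are not named here. For each member the gene with the closest profile was named, and 3 for Dcx. The members and lists were chosen with earlier results of these data known. Alternatives were other pseudocounts (0.1 and 2), minimum averages (none and 5 CPM), rescaling, no trend, no sharing of variances, a replicate block, only the compared genotypes, and leaving out each library. The fit was tested on simulated data.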

Additional observations from a re-analysis of the deposited data

Results flagged for a closer look

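For 3 members the direct test between the mutants (limma, adjusted over all genes) found a difference, given here as the log2 value in the Fzd3 mutant minus that in the Celsr3 mutant. It was 0.34 for Dclk1, 0.24 for Stmn2 and 0.12 for Pafah1b1, and no test was made of why the mutants differed. Of all genes, 29.6% passed the same test. So did 9 of 9 cycling cell, 5 of 5 intermediate progenitor and 6 of 8 radial glia markers, lower in the Fzd3 mutant, beside 14.3% of all genes lower. In the same test 1 radial glia marker was higher, and of 14 neuron markers 7 were higher and 6 lower, beside 15.3% of all genes higher. Other marker sets, and the settings that changed these counts, are given above. The part of these markers in the results was not tested. The call of Dclk1 held with each library left out in turn. That of Stmn2 was lost without control library 1 (adjusted p = 0.0538), Fzd3 mutant library 1 (0.119) or library 2 (0.120) and Celsr3 mutant library 2 (0.113) or library 4 (0.131), and that of Pafah1b1 without Fzd3 mutant library 1 (0.10), library 2 (0.0544) or library 3 (0.0989) and Celsr3 mutant library 2 (0.112) or library 4 (0.113). Stmn2 was also lost without the trend (0.0859), with no sharing of variances (0.131) and with a replicate block (0.204), and Pafah1b1 without the trend (0.0940) and with a replicate block (0.213).

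Among the named genes of the lists the same test found differences in 16 of 21 genes. Most were named for their small adjusted p in the Fzd3 mutant against control, a comparison that shares the 3 Fzd3 mutant libraries, so this count follows largely from the naming. The Fzd3 mutant was higher for Cdk5r2 by 0.62, Map6 by 0.53, Stmn4 by 0.42, Mapre2 by 0.35, Vldlr by 0.26, Srgap2 by 0.25, Cables2 by 0.22, Stmn1 by 0.21, Cdc42 by 0.16 and Kif5c by 0.13. The log2 difference was -0.76 for Nde1, -0.23 for Tubg1, -0.21 for Crkl, -0.18 for Tubb4b, -0.15 for Src and -0.13 for Cdh2, each lower in the Fzd3 mutant. Map6, Mapre2, Nde1 and Srgap2 passed in all 19 alternatives. With 1 library left out at a time, 9 of these calls were lost at least once. The call of Cables2 was lost without control library 1 (adjusted p = 0.0511), Fzd3 mutant library 1 (0.105), library 2 (0.0852) or library 3 (0.0636) and Celsr3 mutant library 2 (0.146) or library 4 (0.0803). The call of Cdc42 was lost without Fzd3 mutant library 1 (0.0564) or library 2 (0.0672) and Celsr3 mutant library 2 (0.0682). The call of Cdh2 was lost without control library 1 (0.0662), Fzd3 mutant library 1 (0.095), library 2 (0.131) or library 3 (0.0878) and Celsr3 mutant library 1 (0.107), library 2 (0.152) or library 4 (0.0609). The call of Cdk5r2 was lost without Fzd3 mutant library 1 (0.0501). The call of Kif5c was lost without Fzd3 mutant library 1 (0.124), library 2 (0.062) or library 3 (0.058) and Celsr3 mutant library 4 (0.142). The call of Src was lost without Fzd3 mutant library 2 (0.101) or library 3 (0.0858) and Celsr3 mutant library 1 (0.115) or library 4 (0.0702). The call of Stmn1 was lost without control library 1 (0.0551), Fzd3 mutant library 1 (0.0939) or library 2 (0.14) and Celsr3 mutant library 2 (0.131) or library 4 (0.136). The call of Tubb4b was lost without Fzd3 mutant library 1 (0.0523) and Celsr3 mutant library 2 (0.0501). The call of Tubg1 was lost without Fzd3 mutant library 1 (0.0661) or library 2 (0.103) and Celsr3 mutant library 1 (0.063) or library 4 (0.0923). Other settings also ended calls. With a replicate block these were Cables2 (0.144), Cdc42 (0.104), Cdh2 (0.174), Cdk5r2 (0.0713), Crkl (0.0593), Kif5c (0.238), Src (0.146), Stmn1 (0.22), Stmn4 (0.0706), Tubg1 (0.0766) and Vldlr (0.0673). Without the trend they were Cables2 (0.0693), Cdc42 (0.0547), Cdh2 (0.106), Kif5c (0.0841), Src (0.0715), Stmn1 (0.0778) and Tubg1 (0.0508), and with no sharing of variances Cables2 (0.0975), Cdh2 (0.09), Cdk5r2 (0.0585), Src (0.0618), Stmn1 (0.106), Stmn4 (0.0562) and Tubg1 (0.0759). With only the compared genotypes they were Kif5c (0.0514) and Stmn1 (0.0505). The call of Cdh2 was also lost with a pseudocount of 2 (0.051) and with median ratio scaling (0.053).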

How the results depend on the processing

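The tests between genotypes were recomputed under 19 alternatives, and the order by level and the separation of members under 11 each, changing 1 choice at a time. Shares among paralogs and closest profiles were not recomputed. Dclk1 passed in all 19 in both comparisons of the Fzd3 mutant, and members passing in the Celsr3 mutant against control numbered 0 in all 19. Members passing in the Fzd3 mutant against control numbered 1 without the trend, 4 with columns rescaled to a sum of 1000000 and 1 to 3 with a library left out, against 2. Between the mutants they numbered 1 without the trend, 1 with a replicate block and 1 to 3 with a library left out, against 3. Genes passing in the Celsr3 mutant against control numbered 24 with no sharing of variances and 29 with a replicate block, against 45, and 39 to 53 with a library left out. Between the mutants genes passing numbered 2101 with a replicate block, against 4346. Of 27 places in the order by level, 19 were kept per kb of the longest transcript, 12 by CPM without length and 23 to 27 with a library left out. Of 27 comparisons of a member between genotypes, 10 were apart, against 11 with a sum of 1000000, 10 with median ratio scaling and 10 to 15 with a library left out. These rescalings and left-out libraries for separation, and the left-out libraries for order, were chosen after seeing the data. Signs reversed for small differences. In the Fzd3 mutant against control, log2 ranges with a library left out were -0.018 to 0.042 for Tubb2b, -0.0035 to 0.11 for Tuba1a and -0.051 to 0.058 for Pak1. In the Celsr3 mutant against control they were -0.031 to 0.030 for Dcx, -0.10 to 0.016 for Tuba1a, -0.030 to 0.020 for Pafah1b1, -0.011 to 0.027 for Ndel1, -0.081 to 0.0051 for Dab1 and -0.068 to 0.092 for Stmn2. There the replicate block gave 0.028 for Dcx, 0.00074 for Tubb2b and 0.0059 for Pafah1b1, and a sum of 1000000 gave 0.0086 for Dcx and 0.0034 for Pafah1b1. Celsr3 mutant library 4 is alone in its replicate block, so that fit in effect drops it. Replicate numbers do not show pairing: residual correlations across genes for the same number averaged -0.14 (-0.20 to -0.07, 3 pairs) for Fzd3 mutant and control. They averaged 0.03 (-0.01 to 0.07, 2 pairs) for Celsr3 mutant and control and 0.06 (-0.08 to 0.19, 2 pairs) between the mutants. With so few pairs, and residuals that sum to 0 within a genotype, pairing is not excluded either. A library left out leaves its genotype with 2 libraries. Tests on counts by edgeR or DESeq2 were not run. The cause of each change was not tested.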
